A study of Homo sapiens with 5 samples.

Results

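The genes TGM2, TRIM15 and ENDOU were followed in single SW480 cells taken from zebrafish xenografts. They were chosen because their summed counts of unique molecular identifiers (UMIs, each of which tags 1 RNA molecule) fell from 1 to 4 days post injection (dpi). They are 3 of the 15022 human genes that were kept. SW480, a long-established line, comes from a human colorectal tumor, and the injected parental cells carried GFP. All groups share this line, the GFP construct and the zebrafish host. Tumors were dissected at 1 dpi and at 4 dpi, pooled into a mixture, dissociated and sorted by FACS into plates of 384 wells for SORT-seq, a method that tags the 3' end of each RNA. Each plate gave 1 library, and these were libraries 6, 7 and 8 for 1 dpi and libraries 10 and 11 for 4 dpi. Libraries of 1 time point may share 1 pool of tumors, so that p values may measure only the technical spread between plates.

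TGM2 encodes tissue transglutaminase, which joins proteins by bonds between glutamine and lysine residues and which also binds GTP and acts with integrins and fibronectin at the cell surface. TRIM15 belongs to the tripartite motif proteins, a family that includes many ubiquitin ligases, and its protein has been located at focal adhesions. ENDOU encodes a secreted endoribonuclease that cuts RNA at uridines. HES5 and HES1 are transcriptional repressors of the basic helix-loop-helix class. They are switched on when a cleaved Notch receptor joins the DNA-binding protein RBPJ, so their RNA is a usual mark of a cell with active Notch signaling.

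In the RefSeq annotation of GRCh38.p14, TGM2 lies on the minus strand of chromosome 20 from 38127385 to 38168475, ENDOU on the minus strand of chromosome 12 from 47709734 to 47725490, and TRIM15 on the plus strand of chromosome 6 from 30163546 to 30172693, in the major histocompatibility region. TRIM10 lies on the opposite strand from 30151943 to 30164009, so that the starts of TRIM10 and TRIM15 share 464 bases. The shared bases lie at the start of each gene, away from the 3' end that SORT-seq tags. The sources used here do not say whether counting used the strand. Any reads from the shared bases could thus have been given to either gene, and they were not counted here. A promoter of TRIM15 was listed among the RefSeq promoters, and none was listed for TGM2 or ENDOU. The 250 bases before the start of TRIM15 are shown with those of HES5 and HES1 because the level of TRIM15 went with these Notch targets from cell to cell. Capitals mark TGGGAA, the core letters of the RBPJ motif, or their reverse complement TTCCCA.
TRIM15, chr6:30163296-30163545, plus strand: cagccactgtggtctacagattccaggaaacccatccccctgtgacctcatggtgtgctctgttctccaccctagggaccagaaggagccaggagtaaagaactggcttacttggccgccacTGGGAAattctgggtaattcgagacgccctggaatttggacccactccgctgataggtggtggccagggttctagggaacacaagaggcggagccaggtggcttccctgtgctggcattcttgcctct
HES5, chr1:2530264-2530513, minus strand: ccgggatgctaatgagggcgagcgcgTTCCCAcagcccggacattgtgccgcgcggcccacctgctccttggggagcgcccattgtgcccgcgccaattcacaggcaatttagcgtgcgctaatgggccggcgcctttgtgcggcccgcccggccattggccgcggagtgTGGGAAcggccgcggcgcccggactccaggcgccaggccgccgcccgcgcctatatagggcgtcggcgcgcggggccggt
HES1, chr3:194135898-194136147, plus strand: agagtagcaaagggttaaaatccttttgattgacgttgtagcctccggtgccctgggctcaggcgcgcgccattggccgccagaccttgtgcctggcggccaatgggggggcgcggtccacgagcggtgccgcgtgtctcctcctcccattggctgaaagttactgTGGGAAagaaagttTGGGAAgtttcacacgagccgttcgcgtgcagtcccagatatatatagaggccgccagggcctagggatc
TRIM15 held 1 copy, from 128 to 123 bases before its start. HES5 held 2 copies, at 224 to 219 and at 80 to 75 bases before its start, and HES1 held 2, at 84 to 79 and at 70 to 65 bases. The letters stood on either strand in 20.8% of 35116 promoters of the same length, and a match describes the letters only.

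Cells were kept where over 2000 genes were seen and mitochondrial UMIs made up under 25%, which left 228, 142 and 163 cells in libraries 6, 7 and 8, with 132 for library 10 and 161 for library 11. The cells of a library held between 3789627 and 7503652 UMIs together, and the median cell held between 18823 and 36197. The 10 epithelial markers summed to between 5140 and 6340 CPM over the 5 libraries, where CPM are the UMIs of a gene over all UMIs of the same cells, scaled to 1000000. Of markers of other cells, PTPRC, TYROBP, CD3E, CDH5, COL1A2 and HBB were not among the genes kept. The 7 leukocyte markers that were kept summed to between 22.7 and 26.4 CPM at 1 dpi and to between 7.65 and 8.58 at 4 dpi. ITGAM gave 184 of these UMIs at 1 dpi and 14 at 4 dpi, and the part of such RNA in the results was not tested. The 3 endothelial markers kept summed to between 9.46 and 13.8 CPM at 1 dpi and to between 6.07 and 6.56 at 4 dpi, mostly from EGFL7 with 173 and 36 UMIs. The 2 fibroblast markers kept, LUM and COL1A1, ran the other way, with 22.9 to 26.6 CPM at 1 dpi and 32.5 to 44.2 at 4 dpi. HBA1, the 1 erythroid marker kept, gave 4.40 to 9.41 and 2.64 to 3.79 CPM. Wells with under 200 genes, between 60 and 133 in a library, held no UMI of TGM2 or ENDOU and 1 of TRIM15.

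All 3 genes were lower in each library of 4 dpi than in each library of 1 dpi. This pattern chose them, so the values over time are a description and carry no test. Of 12646 genes in the comparison of time points, 25.6% had every 4 dpi library below every 1 dpi library, and 14.2% were called lower by edgeR's quasi-likelihood test at an adjusted p under 0.05.

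The 1 dpi libraries gave 602, 398 and 340 TRIM15 UMIs, in the order 6, 7, 8, and the 4 dpi libraries gave 86 and 75. In CPM these were 80.2, 74.0 and 71.1 at 1 dpi and 21.7 and 19.8 at 4 dpi. By the names of the deposited tables libraries 6, 7 and 10 shared a flow cell and libraries 8 and 11 another, and TRIM15 was lower at 4 dpi on both. The 1 dpi libraries lay close together and far above the pair of 4 dpi. The early mean was 75.1 ± 4.66 (SD, n = 3) and the late mean 20.8 ± 1.36 (SD, n = 2), a ratio of 3.62. Both the number of cells and the amount per cell were lower at 4 dpi. A TRIM15 UMI was seen in 54.4%, 61.3% and 50.3% of the 1 dpi cells and in 34.8% and 24.8% of the 4 dpi cells. The highest cell held 41 UMIs at 1 dpi and 11 at 4 dpi, and 5 or more UMIs were seen in 95 of 533 cells against 6 of 293. With each cell thinned to 5000 UMIs, TRIM15 was seen in 24.5% of 526 cells at 1 dpi and in 10.0% of 289 cells at 4 dpi.

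TGM2 had 99, 85 and 56 UMIs in the libraries of 1 dpi and 6 and 4 UMIs in those of 4 dpi. In CPM, library 7 was the highest with 15.8, followed by library 6 with 13.2 and library 8 with 11.7, and libraries 10 and 11 held 1.51 and 1.06. The early mean was 13.6 ± 2.07 (SD, n = 3) and the late mean 1.29 ± 0.325 (SD, n = 2). Over the pooled cells the rate was 10.5 times as high at 1 dpi, with an exact 95% counting interval from 5.63 to 22.2. The interval takes each UMI as independent and leaves out spread between cells and libraries, so it is no test of the fall. TGM2 was seen in 19.3%, 26.1% and 17.8% of the 1 dpi cells and in 3.79% and 2.48% of the 4 dpi cells. Its RNA was concentrated in few cells. At 1 dpi 110 of 533 cells held all 240 UMIs, 65 of these cells held 1 UMI, and the 21 highest cells, 3.94% of all, held 50% or more of the UMIs. At 4 dpi no cell held more than 2. After thinning to 5000 UMIs TGM2 was seen in 5.89% of the 1 dpi cells and in 1.04% of the 4 dpi cells, the last from 3 UMIs.

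ENDOU was the rarest of the 3. It had 19, 11 and 10 UMIs in libraries 6, 7 and 8, in 14, 7 and 7 cells, and no cell held more than 4. Library 10 had 1 UMI and library 11 had 0 UMIs in 161 cells, where a limit of 3 counts allows up to 1.86% of cells with a UMI and the exact 95% binomial interval ends at 2.27%. The 1 dpi libraries held 2.53, 2.05 and 2.09 CPM and library 10 held 0.252. With 40 UMIs against 1, the rate was 17.6 times as high at 1 dpi, with an exact 95% counting interval from 2.97 to 710. That ratio was 8.97 without library 11, 11.3 with a mitochondrial maximum of 15% and 8.81 where 1000 genes sufficed for a cell, and without library 10 no ENDOU UMI was left at 4 dpi. Such intervals cover counting error only. At these counts the level at 4 dpi was not measurable beyond its upper limit.

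Other members of the same families did not all share this fall. Over all 12646 genes in the comparison of time points 14.2% were called lower and 13.4% higher. Of 38 further TRIM genes that were tested over time, 9 were called lower and 2 higher, and the list's median log2 change was -0.10 beside 0.00 over all genes. Of the TRIM genes of the major histocompatibility region 3 of 5 were called lower, with a median of -0.54. These were TRIM10, with a log2 change of -1.07 ± 0.27 (SE, adjusted p = 0.00808 by edgeR), TRIM31, with -1.78 ± 0.57 (adjusted p = 0.028 by edgeR), and TRIM39, with -0.54 ± 0.18 (adjusted p = 0.0342 by edgeR). The call of TRIM39 was lost in 9 of 12 alternatives, including without each of the 5 libraries, that of TRIM31 in 4 of 8, including without library 10 and without library 11, and that of TRIM10 in 2 of 11, without library 11 and in HES5-zero cells. Among the other transglutaminases only TGM4 had enough UMIs to be tested, with 27 UMIs at 1 dpi and 13 at 4 dpi and a log2 change of 0.14 ± 0.66 (adjusted p = 0.897 by edgeR) that ran from -0.97 without library 11 to 0.79 without library 10. None of the 12 integrins, syndecans and other surface partners of TGM2 was called by edgeR, and their median log2 change was -0.25. Of 11 further endoribonucleases 3 were called lower and 1 higher. ZC3H12A, which cuts messages of inflammatory genes, was the clearest of these, with -1.09 ± 0.18 (adjusted p = 3.5e-04 by edgeR), and was not called in thinned cells (-0.58 ± 0.23, adjusted p = 0.0851).

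The relation of the 3 genes to HES5 was then examined within 1 dpi. The comparison was tested over libraries. Its cell groups were not used to choose the genes, but the choice used the same 1 dpi counts. HES5 itself fell, from a mean of 101 CPM at 1 dpi to 3.24 at 4 dpi. A choice by fall can thus favor genes that are high in HES5-detected cells. The p values of these genes within 1 dpi are therefore not independent of that choice. HES5 was seen in 59, 48 and 43 cells of libraries 6, 7 and 8 and was at 0 in the other 169, 94 and 120. UMIs were summed over each cell group of a library, and the groups were compared by edgeR with the library as a block. TRIM15 was higher in the HES5-detected cells of every library. It held 143, 111 and 141 CPM in the HES5-detected cells of libraries 6, 7 and 8 and 48.7, 51.9 and 27.0 in the HES5-zero cells. The lowest HES5-detected sum lay above the highest HES5-zero sum, and the ratio within a library ran from 2.14 to 5.23. The means were 132 ± 17.8 and 42.5 ± 13.6 (SD, n = 3 each), with a log2 difference of 1.51 ± 0.15 (SE, 95% interval 1.20 to 1.81, adjusted p = 3.8e-08 by edgeR). In this comparison 34.8% of 11196 genes were called, with 18.0% of all genes called higher and 16.8% lower, and 37.5% were higher in all 3 libraries, so a call as such is common here.

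TRIM15 was seen in 84.0% of the 150 HES5-detected cells and in 43.6% of the 383 HES5-zero cells. The HES5-detected cells were deeper, with median UMIs of 43405, 40238 and 42059 in libraries 6, 7 and 8 against 28311 in the HES5-zero cells of library 6, 34770.5 in those of library 7 and 20996.5 in those of library 8. After thinning to 5000 UMIs the shares with TRIM15 were 42.7% and 17.3%. Median mitochondrial shares were lower in the HES5-detected cells, with 9.56%, 10.1% and 9.81% in libraries 6, 7 and 8 against 13.6%, 11.5% and 10.9%. With a mitochondrial maximum of 15% the log2 difference of TRIM15 was 1.27 ± 0.16 (SE), where all passing cells gave 1.51. The HES5-detected cells held 59.6%, 56.0% and 76.8% of the TRIM15 UMIs of libraries 6, 7 and 8 but only 33.4%, 37.3% and 38.7% of all UMIs.

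TRIM15 also followed the amount of HES5. Cells with 0 UMIs of HES5 averaged 42.5 ± 13.6 CPM of TRIM15 over the 3 libraries, and cells with 1 UMI averaged 68.7 ± 16.2. The mean was 132 ± 17.0 in cells with 2 to 9 UMIs of HES5 and 198 ± 36.0 (SD, n = 3) in cells with 10 or more. In libraries 6 and 8 each step was above the one before. In library 7 the first step was small in the other direction, with 51.9 in cells without HES5 and 50.1 in the 20 cells with 1 UMI. Of the 43 cells with 10 or more HES5 UMIs, 42 held TRIM15. These groups are small, between 10 and 22 cells in each library at the top step, and the median cell rose from 27976 UMIs without HES5 to 50634 at that step.

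The TGM2 level in CPM had no order over the HES5 groups beyond the spread between libraries. It held 12.4, 19.4 and 17.3 CPM in the HES5-detected cells of libraries 6, 7 and 8 and 13.6, 13.6 and 8.19 in the HES5-zero cells. Libraries 7 and 8 were higher with HES5 and library 6 was lower, and the groups overlapped. The log2 difference was 0.30 ± 0.25 (SE, adjusted p = 0.368 by edgeR), and its 95% interval from -0.21 to 0.81 includes differences in either direction. Over the steps of HES5 the TGM2 means were 11.8 ± 3.14, 19.1 ± 9.72, 14.6 ± 3.91 and 16.2 ± 14.3 CPM (SD, n = 3). The share of cells with TGM2 did differ in 1 direction. It was 32.0% of the HES5-detected and 16.2% of the HES5-zero cells, with 28.8% against 16% in library 6, 35.4% against 21.3% in library 7 and 32.6% against 12.5% in library 8. After thinning to 5000 UMIs the shares were 8.67% and 4.79%, again the higher with HES5 in all 3 libraries. These rest on 13 and 18 cells, and the shares were not tested. The number of TRIM15 UMIs for each TGM2 UMI was higher in HES5-detected than in HES5-zero cells of all 3 libraries, with 11.6 against 3.57 in library 6, 5.72 against 3.80 in library 7 and 8.16 against 3.29 in library 8. With 3 libraries an exact two-sided sign-flip test of this ratio cannot go below 0.25.

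ENDOU gave 5, 9 and 2 UMIs in the HES5-detected cells of libraries 6, 7 and 8 and 14, 2 and 8 UMIs in the HES5-zero cells. Library 7 had more in the HES5-detected cells, and the other libraries had fewer. ENDOU had too few UMIs to pass the filter on low counts and was not tested between cell groups.

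HES5-zero cells were then split within each library at the median share of UMIs that came from HES1, to see whether TRIM15 followed another Notch target where HES5 was not seen. TRIM15 held 68.2, 77.3 and 34.3 CPM in the HES1-high group of libraries 6, 7 and 8 and 30.3, 30.6 and 18.4 in the HES1-low group. It was higher in the HES1-high group of all 3 libraries, with a log2 difference of 1.10 ± 0.18 (SE, adjusted p = 3.5e-04 by edgeR), in a comparison in which 14.5% of genes were called, 8.93% higher and 5.53% lower, and 29.6% were higher in all 3 libraries. The median cell held 26438 UMIs in the HES1-high and 32080 in the HES1-low group of library 6. The values were 30524 and 36984 in library 7 and 23708 and 17750 in library 8, so that depth had no common direction. Median mitochondrial shares did, with 13.2%, 10.9% and 9.75% in the HES1-high group against 14.5%, 11.6% and 12.9%. The part of this in the TRIM15 difference was not tested beyond the mitochondrial maximum of 15%, which gave 1.09 ± 0.20. TGM2 was lower in the HES1-high group of all 3 libraries, with 12.8, 10.4 and 4.45 CPM against 14.4, 16.4 and 12.5. That difference of -0.68 ± 0.32 (SE, log2) did not pass, with an adjusted p of 0.158 by edgeR. ENDOU gave 6, 1 and 4 UMIs in the HES1-high cells and 8, 1 and 4 in the HES1-low cells, too few to compare.

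The same split also separated genes of the early response to growth signals. EGR1 was 3.28 ± 0.18 higher (SE, log2, adjusted p = 3.0e-10 by edgeR) in the HES1-high group, FOS 2.71 ± 0.28 (adjusted p = 2.3e-06) and NR4A1 3.30 ± 0.25 (adjusted p = 3.3e-08). The Notch feedback inhibitor NRARP was 1.45 ± 0.21 higher (adjusted p = 1.3e-04 by edgeR). ITGAM, the leukocyte marker with enough UMIs to be tested, was 1.66 ± 0.41 higher (SE, log2), a call that 3 of 7 alternatives lost. The part of these genes in the TRIM15 difference was not tested.

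The fall with time was set beside the HES5 groups. In HES5-zero cells TRIM15 averaged 42.5 ± 13.6 CPM (SD, n = 3) early and 21.8 ± 1.88 (SD, n = 2) late, a ratio of 1.95, where all cells gave 3.62. The lowest 1 dpi library held 27.0 in these cells and the highest 4 dpi library 23.2. In HES5-zero cells TGM2 averaged 11.8 ± 3.14 and 1.13 ± 0.383, a ratio of 10.5, close to the 10.6 of the all-cell means. All 24 ENDOU UMIs of HES5-zero cells were from 1 dpi. HES5 itself was seen in 18 of 293 cells at 4 dpi, 9 in each library, and those cells held 3 UMIs of TRIM15 in each library, or 7.90 and 10.7 CPM, which was below the HES5-zero cells of the same libraries with 23.2 and 20.5. The HES5-detected cells of 4 dpi held 25 HES5 UMIs in all, and their median mitochondrial shares were 21.0% and 15.6% against 12.4% and 11.5%. TRIM15 was also the higher in HES1-rich cells at 4 dpi. Cells above the library's median HES1 share held 30.5 and 30.3 CPM of TRIM15 in libraries 10 and 11, and the others held 11.8 and 8.70. Their median mitochondrial shares were 8.55% and 10.7%, against 14.2% and 13% in the others. This split of the 4 dpi cells was chosen after the data had been seen and was not tested.

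The genes that went with TRIM15 were described by comparing the 293 TRIM15-detected with the 240 TRIM15-zero cells of 1 dpi, and the library again entered as a block. Of 11149 genes 1382 were called higher and 1213 lower, which is 23.3% in all, and 39.7% were higher in all 3 libraries. TRIM15-detected cells were again the deeper ones, with medians of 38761 against 20968 UMIs, and had a lower median mitochondrial share, 10.4% against 13.2%. Notch targets were higher in the TRIM15-detected cells, which are the same cells as in the HES5 comparison and so give no separate evidence on HES5. HES5 held 145 ± 34.6 CPM against 9.57 ± 2.46 (SD, n = 3 each), a log2 difference of 3.77 ± 0.15 (SE, adjusted p = 1.2e-08 by edgeR). HES1 differed by 1.82 ± 0.11 (adjusted p = 4.8e-07 by edgeR), NRARP by 1.41 ± 0.13 (adjusted p = 2.5e-05) and HEYL, another repressor of the HES and HEY class, by 1.46 ± 0.24 (adjusted p = 0.00128). Over the Notch pathway list 9 of 34 tested genes were called higher and 3 lower, with a median of 0.14. The ligand JAG1 was not among them, at -0.19 ± 0.20 (adjusted p = 0.541 by edgeR).

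Targets of NF-kB were often higher beside TRIM15. Of 19 tested, 10 were called higher and 0 lower, with a median log2 difference of 0.95. Among them were the feedback inhibitors TNFAIP3, with 1.75 ± 0.17 (adjusted p = 5.7e-05 by edgeR), and NFKBIE, with 1.70 ± 0.20 (adjusted p = 1.8e-04), together with BCL3, with 1.53 ± 0.15, and the inhibitor of apoptosis BIRC3, with 1.33 ± 0.16. Of 14 TGF-beta and BMP targets 6 were called higher and 1 lower. ID1, an inhibitor of basic helix-loop-helix factors, differed by 1.68 ± 0.13 (adjusted p = 7.0e-06 by edgeR), and SMAD7, which blocks the receptors, by 1.11 ± 0.22 (adjusted p = 0.00299), a call lost in thinned cells and without library 6. The largest differences in the same direction in all 3 libraries were those of DHRS2, a short-chain dehydrogenase, with 3.36 ± 0.20, and GRHL3, a factor of epithelial barrier formation, with 3.23 ± 0.43, beside HES5. DHRS2 was 1.19 ± 0.29 in cells thinned to 5000 UMIs, which were grouped by their thinned TRIM15 counts. Of 24 cell cycle genes 0 were called higher and 5 lower. The replication factor PCNA differed by -0.76 ± 0.09 (adjusted p = 1.7e-04 by edgeR) and the helicase subunit MCM6 by -0.66 ± 0.11 (adjusted p = 0.001). HEYL, PCNA, MCM6 and the TRIM4 and TRIM29 given next each lost the call in thinned cells alone. The list results were not particular to TRIM15. Between the HES5 groups 10 of 18 NF-kB targets were called higher and 1 lower. There 8 of 14 TGF-beta and BMP targets were higher and 2 lower, and 2 of 24 cell cycle genes higher and 9 lower. Between the HES1 groups 10 of 17 NF-kB targets were called higher and 1 lower, and 0 of 24 cell cycle genes higher and 4 lower.

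Genes of TRIM15's own family and setting were mixed. TRIM10, which shares its start with TRIM15, was higher in TRIM15-detected cells, in all 3 libraries, with 13.1 ± 1.85 against 4.68 ± 2.30 CPM (SD, n = 3 each), a log2 difference of 1.42 ± 0.37 (adjusted p = 0.0142 by edgeR), a call that 3 of 8 alternatives lost. TRIM10 was also higher in HES5-detected than in HES5-zero cells, by 1.05 ± 0.26 (adjusted p = 0.00316 by edgeR), which 2 of 10 alternatives lost, and its difference of 0.56 ± 0.38 between the HES1 groups did not pass (adjusted p = 0.351). Of 36 further TRIM genes 4 were called higher and 4 lower beside TRIM15. TRIM4 differed by 0.89 ± 0.11 and TRIM29 by -0.67 ± 0.11. Of 25 focal adhesion genes, where the TRIM15 protein has been located, 3 were called higher and 4 lower with a median of -0.04. The adaptor TNS3 was the clearest of those higher, at 1.13 ± 0.17 (adjusted p = 8.1e-04 by edgeR), and the actin cross-linker FLNA was lower, at -0.37 ± 0.09 (adjusted p = 0.0113). FLNA lost its call in 4 of 10 alternatives and TNS3 in 2 of 10, without library 6 among them for both. ITGAM was the 1 leukocyte marker with enough UMIs to be tested, and it was 1.28 ± 0.43 higher in the TRIM15-detected cells (adjusted p = 0.047 by edgeR), a call that 5 of 8 alternatives lost, without library 6 and without library 7 among them.

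The pattern most like TRIM15 over the 533 cells was sought by Spearman correlation of UMIs per 10000, centered per library, among 10976 genes seen in at least 10% of cells. The first were the immediate early gene IER2 with 0.48, KLF10, a TGF-beta induced repressor, with 0.48, the splicing kinase CLK4 with 0.47, the kinase RIPK4 with 0.46 and CSRNP1 with 0.46. HES5 stood in place 16 with 0.42 and HES1 in place 40 with 0.40. With ranks taken within each library, a way chosen after the data had been seen, 4 of these 5 stayed among the first 5 and HES5 moved to place 6 with 0.46. The cells share plates and depth, and TRIM15 correlated with the cell's total UMIs at 0.29. All 5 first genes were also higher in HES5-detected cells, RIPK4 by 2.04 ± 0.13, KLF10 by 1.66 ± 0.10 and IER2 by 1.52 ± 0.11 among them (SE, log2).

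For TGM2 the same measure put HOMER3 first with 0.53 and C5AR1, a complement receptor, next with 0.52, HES5 in place 307 with 0.35 and TRIM15 in place 2009 with 0.12. With ranks taken within each library 1 of the first 5 genes was shared, HOMER3 fell to place 230 with 0.15, PADI1 came first with 0.25, and HES5 stood in place 188 with 0.15. The likeness to TGM2 therefore changed with the way of ranking, and TRIM15 stood at 0.03 within libraries. Centering shifted cells without a UMI by a different amount in each library before all cells were ranked together. For a gene seen in few cells, the first ranking thus also orders cells by library. Its values, such as 0.53 and 0.35, are not a likeness within libraries alone.

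Few genes were called beside TGM2. Between the 110 TGM2-detected and the 423 TGM2-zero cells of 1 dpi 48 genes were called higher and 28 lower of 11142, or 0.682%. TRIM15 was not among them. It held 92.3, 82.4 and 70.1 CPM in the TGM2-detected cells of libraries 6, 7 and 8 against 76.2, 69.9 and 71.4, a log2 difference of 0.21 ± 0.12 (95% interval -0.05 to 0.46, adjusted p = 0.561 by edgeR). ENDOU had 12, 6 and 2 UMIs in the TGM2-detected cells of libraries 6, 7 and 8 and 7, 5 and 8 in the TGM2-zero cells, and was not tested.

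Of 6 tested genes of the secretory list 2 were called higher beside TGM2 and 0 lower, with a median log2 difference of 0.54. PLAU, the urokinase protease, held 20.9 CPM in TGM2-detected and 7.51 in TGM2-zero cells, a log2 difference of 1.67 ± 0.30 (SE, adjusted p = 0.021 by edgeR). The trefoil peptides TFF1 and TFF2, made by mucous cells, differed by 1.56 ± 0.29 (adjusted p = 0.0231 by edgeR) and 1.07 ± 0.18 (adjusted p = 0.0128), and TFF3 by 0.54 ± 0.14 (adjusted p = 0.0942), which did not pass. The keratin KRT81, the arginine deiminase PADI1, the apoptosis inhibitor FAIM2 and the lipid hydroxylase FA2H were higher too, by 1.55 ± 0.30, 1.5 ± 0.29, 1.75 ± 0.29 and 1.02 ± 0.19. The laminin receptor subunit ITGB4 was the 1 gene called of 9 tested surface partners of TGM2, at 0.48 ± 0.10 (adjusted p = 0.0381 by edgeR), and 6 of 9 alternatives lost that call, with an adjusted p of up to 0.275.

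On the other side stood APCDD1, a Wnt inhibitor, at -0.99 ± 0.11 (adjusted p = 9.3e-04 by edgeR), FOXQ1 at -1.03 ± 0.15 (adjusted p = 0.00616), the intestinal identity factor CDX2 at -1.22 ± 0.22 (adjusted p = 0.021) and the mesenchymal filament VIM at -1.29 ± 0.25 (adjusted p = 0.0233). Of the 10 largest rises and 5 largest falls, KIF14, a mitotic kinesin at 1.11 ± 0.18, and FOXQ1 kept the call in all alternatives that could be run, and each of the others lost it in 1 or more. PADI1 lost it in 5 of 8 alternatives, and TFF1 and VIM in 4 of 8. FAIM2, KRT81 and FA2H lost it in 3 of 8. PLAU, TFF2 and CDX2 lost it in 2 of 8, and APCDD1 in 1 of 9. Of 33 Notch pathway genes only HES1 was called, at 0.62 ± 0.09 (adjusted p = 0.00653 by edgeR), and 2 of 9 alternatives lost that call. HES5 differed by -0.07 ± 0.13 and NRARP by 0.06 ± 0.14, and both changed sign in some alternatives. None of 19 NF-kB targets, 12 retinoic acid pathway genes, 25 focal adhesion genes or 24 cell cycle genes was called in this comparison by edgeR. The medians of these lists were -0.15, 0.06, 0.15 and 0.31, in that order, beside 0.0 over all genes. MCM7 of the cell cycle list, at 0.43 ± 0.10 (adjusted p = 0.0589 by edgeR), gained a call in 2 of 9 alternatives. Of 14 TGF-beta and BMP targets 1 was called higher and 1 lower, with a median of -0.10. IER2, the first gene by likeness to TRIM15, was also higher beside TGM2, at 0.75 ± 0.09 (adjusted p = 0.00204 by edgeR). It kept that call in 9 of 9 alternatives. With 44, 37 and 29 TGM2-detected cells in libraries 6, 7 and 8, a missing call does not show that there was no difference.

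TGM2 itself differed in no common direction with TRIM15. TGM2 held 9.26, 19.2 and 9.34 CPM in the TRIM15-detected cells of libraries 6, 7 and 8 and 21.4, 7.66 and 15.7 in the TRIM15-zero cells. Library 7 ran against the other libraries. The log2 difference of -0.51 ± 0.38 did not pass (adjusted p = 0.357 by edgeR), it was 0.10 without library 6 and -1.22 without library 7, where it passed (adjusted p = 3.7e-04). TGM2 and TRIM15 UMIs were seen together in 68 cells where independence within libraries would give 61.2, TGM2 and ENDOU in 11 cells where it would give 5.77, and TRIM15 and ENDOU in 13 where it would give 15.4. TRIM15 and HES5 were seen together in 126 cells where independence would give 83.1, and TGM2 and HES5 in 48 where it would give 31.5. All 3 genes were seen in 5 of 533 cells and none of them in 189. Depth was not matched in these counts, and the cells with TGM2 had a median of 40908 UMIs against 28725 in those without.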

How the data were processed

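Single SW480 cells from zebrafish xenografts were measured by SORT-seq at 1 dpi (3 libraries) and 4 dpi (2 libraries). Read 1 gave the well barcode and the UMI. The authors mapped read 2 to human transcripts by BWA, and the deposited values are unnormalized UMI counts for every gene in every well. The submitters' processing notes name the build hg38, and no source used here names the BWA version. Genes listed in all 5 libraries and seen in at least 10 wells were kept, then the 826 cells with over 2000 genes and a mitochondrial share under 25%. ERCC spike-in controls entered this filter and no later step. Wells were filled by FACS, no doublet caller was run, and all 5 libraries use the same 384 well barcodes.

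Members and lists were chosen with earlier results of these data known. UMIs were summed per library and cell group (10 or more cells) and tested with edgeR 4.0.16 in R 4.3.3 (quasi-likelihood F, TMM, filterByExpr; two-sided p values adjusted by Benjamini-Hochberg across all tested genes; threshold 0.05), with the library as a block within 1 dpi. The gene that defined a group was left out of its test. Values of the 3 genes over time are levels without a test, other genes were tested over time by edgeR, and 3 against 2 libraries cannot give an exact permutation p below 0.1. Named genes were the members, set Notch genes, the 4 smallest adjusted p values of each list, the 10 largest called rises and 5 largest called falls with 1 direction in all 3 libraries, and the 5 genes most like TGM2 and TRIM15. A gene that this rule named is not reported here. Thinning drew 5000 UMIs per cell and left out 11 shallower cells. Standard errors come from the fitted models, and SDs are between libraries. Alternatives were DESeq2 1.42.0, no filter on low counts, no block, the flow cell as a term, depth-matched or thinned cells, other cell filters, other splits and leaving out each library. The fits of the 5 edgeR comparisons were also run on simulated sums with changes set in advance. Those sums had no library effect and no cells grouped by a gene's detection, so they do not check for effects of that grouping.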

Additional observations from a re-analysis of the deposited data

Results flagged for a closer look

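Wells that failed the filters on cells entered no comparison, and 3 of their sums stood above the limit that a count of 0 allows. In library 7 they held 10 UMIs of TRIM15, in 9 of 242 wells, or 57.6 CPM. In library 11 they held 4 UMIs of TRIM15, or 5.79 CPM, and 4 of TGM2, in 3 of 223 wells, or 5.79 CPM, where the passing cells of that library held 4 UMIs of TGM2 and 1.06 CPM.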

How the results depend on the processing

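No paired analysis was possible because the time points share no replicate numbers. TRIM15 kept its direction and its call between the HES5 groups and between the HES1 groups under all alternatives that were run, and TGM2 was called in neither. The number of called genes moved more, and the cause was not tested. Between HES5 groups 3897 genes were called, 1676 with DESeq2, 665 with thinned cells, and from 2198 (without library 6) to 3757 without 1 library. Between TRIM15 groups 2595 became 1091 with DESeq2, 472 with thinned cells, and from 573 (without library 6, with 70.7% of calls higher in place of 53.3%) to 2859 without 1 library. Between TGM2 groups 76 became 10 without the library block, 24 with DESeq2, 153 without a filter on low counts, 38 with matched depth, 23 with a mitochondrial maximum of 15%, and from 75 to 200 (without library 8) without 1 library. Thinned cells were not run there, since 8 cells of library 6 kept TGM2. Between HES1 groups 1469, of which 61.7% were higher, became 911 without the block (71.2%), 386 with DESeq2 (71.0%), 2427 when the outer parts of a split in 3 were compared, and from 502 to 1859 without 1 library (77.1% higher without library 6). Over time 3485 became 1198 with thinned cells, 1863 in HES5-zero cells, and from 2354 to 2940 without 1 library. The log2 change of TGM2 over time was -3.40, -2.93 thinned, -4.10 with the mitochondrial maximum, and from -3.69 to -3.17 without 1 library. That of TRIM15 was -1.88, -1.53 thinned, -1.75 with the mitochondrial maximum, -1.07 in HES5-zero cells, and from -1.96 to -1.81 without 1 library. TGM2 between TRIM15 groups ran from -1.22 to 0.10 without 1 library. HES5 between TGM2 groups was 0.25 with the mitochondrial maximum and from -0.20 to 0.11 without 1 library, and NRARP from -0.13 to 0.16. TGM4 over time, at 0.14, was -0.02 with a minimum of 1000 genes and from -0.97 to 0.79 without 1 library. Of 953 repeats for the other named genes 805 kept direction and side of the threshold, 131 lost the call, 11 gained it and 6 turned. The few UMIs of ENDOU and of TGM2 at 4 dpi limit what can be said of them.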
